A study of Mus musculus with 24 samples.

Results

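Mitochondrial ribosomal proteins form the protein part of the ribosome that works inside mitochondria, and their transcripts were followed over the circadian cycle in mouse liver. They were chosen by name: a probe set was taken where the platform annotation gave it a single gene symbol that starts with Mrpl (large subunit) or Mrps (small subunit) and a number. This gave 85 of 28815 probe sets, which stand for 77 of the 19935 genes tested. The large subunit had 48 genes from 53 probe sets and the small subunit 29 genes from 32 probe sets. Another probe set (1) that the annotation assigns to Mrpl53 together with Ccdc142 was left out.

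The livers came from adult male C57BL/6 mice with free access to food. The mice had been held for 4 weeks in a cycle of 12 h light and 12 h dim red light and were then moved to constant dim red light, where livers were taken during the second cycle. There were 8 groups, CT00, CT03, CT06, CT09, CT12, CT15, CT18 and CT21, each with 3 livers on an Affymetrix Mouse Gene 1.0 ST array each. By convention, CT00 is the hour at which light had come on before the change, so that CT12 to CT24 is the subjective night, when mice are active. No group differed in genotype or treatment, and no animal was sampled in a light cycle or over more than 1 cycle, and a return of any wave in a later cycle was not measured.

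The deposited values are log values from which the median of each probe set over the 24 arrays had been subtracted. Levels are therefore not known, no gene's level can be set against another's, and the label liver could not be checked by the level of its markers. Base 2 was assumed, and folds hold for that base. The interquartile range of the array values ran from 0.0992 to 0.1998, and the 4 widest arrays were CT21 replicate 3, CT15 replicate 2, CT09 replicate 2 and CT18 replicate 2. In whole liver, fewer cells of a type and less RNA per cell cannot be told apart.

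The mitochondrial ribosome translates the few proteins that mitochondrial DNA still encodes, which are core subunits of the respiratory chain and of ATP synthase. Its RNAs come from mitochondrial DNA, but its proteins are encoded in the nucleus, made on cytosolic ribosomes and imported. The small subunit reads the messenger RNA, and the large subunit joins the amino acids. Some proteins have counterparts in bacterial ribosomes and others were added during the evolution of mitochondria. The symbols keep older assignments: the products of Mrps30 and Mrps18a are now placed in the large subunit, that of Mrps36 belongs to the oxoglutarate dehydrogenase complex, and that of Mrpl58 is a peptidyl-tRNA hydrolase built into the large subunit. The groups below follow the symbols.

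Few mitoribosomal transcripts were called for a 24 h wave, and the waves found were shallow. A cosine and a sine of 24 h period were fitted to the 24 arrays in limma, and a gene was called where the Benjamini-Hochberg adjusted p over all 19935 genes was under 0.05. By this rule 5 of 77 mitoribosomal genes were called (6.49%), against 13.8% of all genes tested. They were Mrpl15 and Mrpl36 of the large subunit (2 of 48, 4.17%) and Mrps9, Mrps2 and Mrps21 of the small subunit (3 of 29, 10.3%). The call of Mrpl15 was kept under every alternative tried, and that of Mrps9 under all but leaving out the CT18 arrays (adjusted p = 0.0519). The calls of Mrpl36, Mrps2 and Mrps21 were each lost on leaving out single arrays, as given with each gene. The count was 2 without CT12 replicate 3 or CT21 replicate 1, 3 without CT12 replicate 2, 2 without all CT12 arrays and 1 without all CT18 arrays. The share of all genes in those fits was not taken. Without the 4 widest arrays 5.19% of members were called, against 11.7% of all genes, and with array weights 9.09%, against 14.8%. With replicate number as a block it was 13%, against 15%, though the labels do not say that these numbers mark a batch. Before adjustment, 18 mitoribosomal genes (23.4%) had a p under 0.05, 14 in the large and 4 in the small subunit, against 23.8% of all genes.

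The median amplitude, which is the log2 distance from the middle of the fitted wave to its peak, was 0.056 over the 77 genes, 0.059 over the large and 0.054 over the small subunit. Over all genes it was 0.046. The median mitoribosomal amplitude is a fold of 1.08 between peak and trough, and 28 of 77 genes (36.4%) had a fold of 1.1 or more, against 32.0% of all genes. In 65 of 77 genes the spread between the 3 livers of a time exceeded the spread of the 8 time means. The median SD was 0.110 between livers and 0.078 between time means. Each time mean averages 3 livers, so such means vary less than single livers even where time has no effect. The count is therefore not a test of a time effect, and no share of all genes is given beside it.

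**Figure D1:**
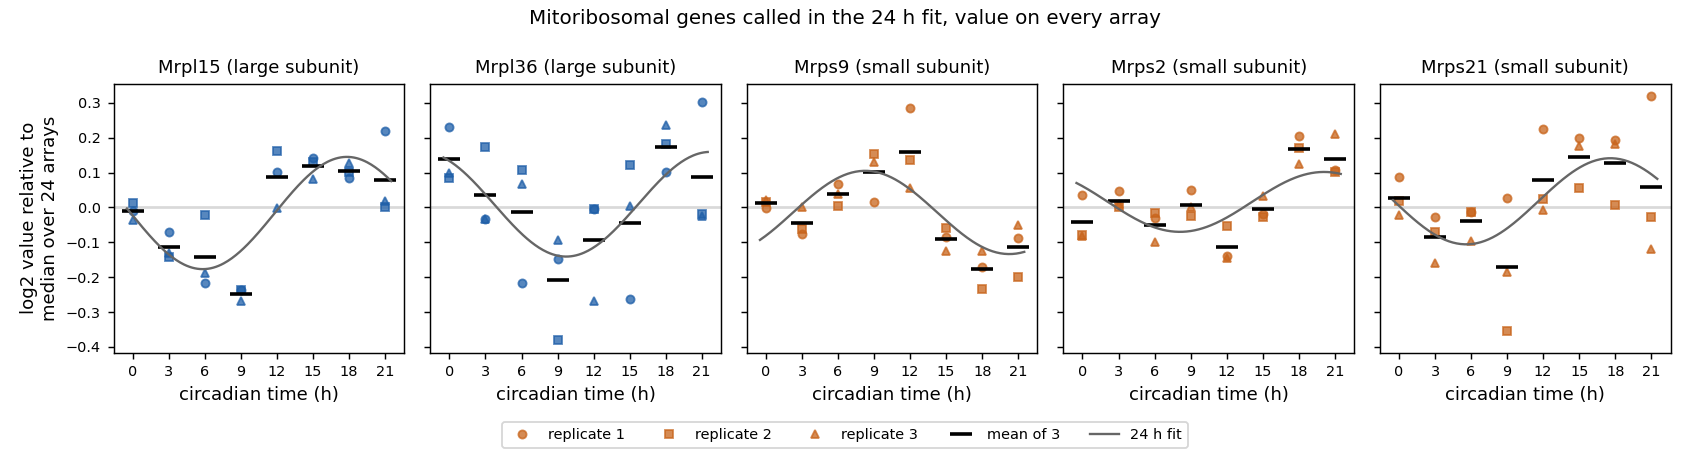
Log2 value relative to the median over 24 arrays (vertical axis) against circadian time in hours for the 5 mitoribosomal genes called in the 24 h fit. Points are single arrays, bars the means of 3 and curves the fitted waves. Mrps9 peaks in the subjective day at 8.26 h, while the other called genes peak between 17.6 and 21.7 h.

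Mrpl15, a protein of the large subunit with a bacterial counterpart, had the clearest wave among the members. Its values were -0.01, 0.013 and -0.036 at CT00, -0.071, -0.14 and -0.13 at CT03, -0.22, -0.023 and -0.19 at CT06, and -0.24, -0.24 and -0.27 at CT09. They were 0.10, 0.16 and -0.0014 at CT12, 0.14, 0.13 and 0.083 at CT15, 0.085, 0.10 and 0.13 at CT18, and 0.22, 0.0014 and 0.02 at CT21. All 3 livers of CT09 lay below every liver of CT12 to CT21, and the 3 livers of CT21 were spread widely. The fitted amplitude was 0.16 ± 0.025 (SE), a fold of 1.25, with a peak at 17.8 ± 0.597 h (SE) and an adjusted p of 0.000191 in limma.

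Mrpl36, a small zinc-binding protein of the large subunit, varied more between livers. Its values were 0.23, 0.086 and 0.10 at CT00, -0.034, 0.17 and -0.033 at CT03, -0.22, 0.11 and 0.068 at CT06, and -0.15, -0.38 and -0.094 at CT09. They were -0.0045, -0.005 and -0.27 at CT12, -0.26, 0.12 and 0.0045 at CT15, 0.10, 0.18 and 0.24 at CT18, and 0.30, -0.019 and -0.024 at CT21. The livers of CT18 and CT00 were all above 0 and those of CT09 all below, while CT15 and CT21 held values on both sides. The amplitude was 0.15 ± 0.039 (SE), a fold of 1.23, with a peak at 21.7 ± 0.988 h and an adjusted p of 0.0258 in limma. The adjusted p was 0.0639 without CT09 replicate 2, 0.056 without CT12 replicate 3, 0.0648 without CT21 replicate 1 and 0.0512 without the 4 widest arrays. It was 0.0758, 0.154, 0.0591 and 0.084 without the times CT00, CT09, CT12 and CT18.

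Mrps9, a protein of the small subunit with a bacterial counterpart, peaked in the subjective day, unlike Mrpl15, although both were above their medians at CT12 and below them at CT03. Its values were -0.0026, 0.015 and 0.023 at CT00, -0.075, -0.061 and 0.0026 at CT03, 0.068, 0.0057 and 0.04 at CT06, and 0.017, 0.15 and 0.13 at CT09. They were 0.29, 0.14 and 0.055 at CT12, -0.085, -0.058 and -0.13 at CT15, -0.17, -0.23 and -0.12 at CT18, and -0.089, -0.20 and -0.05 at CT21. Every liver of CT15, CT18 and CT21 lay below every liver of CT06, CT09 and CT12. The amplitude was 0.12 ± 0.025 (SE), a fold of 1.18, with a peak at 8.26 ± 0.811 h and an adjusted p of 0.00516 in limma.

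Mrps2, another small subunit protein with a bacterial counterpart, had its lowest mean at CT12 (-0.11) and its highest means at CT18 and CT21. Its values were 0.037, -0.078 and -0.082 at CT00, -0.14, -0.053 and -0.14 at CT12, 0.20, 0.17 and 0.13 at CT18, and 0.11, 0.10 and 0.21 at CT21, and the livers of CT03, CT06, CT09 and CT15 lay between -0.10 and 0.05. The 6 livers of CT18 and CT21 were above the other 18. The amplitude was 0.086 ± 0.024 (SE), a fold of 1.13, with a peak at 20.1 ± 1.05 h and an adjusted p of 0.0388 in limma. The 24 h call was lost on leaving out 11 single arrays (adjusted p 0.0509 to 0.0933), which were CT06 replicates 1 and 3 and every array of CT12, CT18 and CT21. It was also lost without the 4 widest arrays (0.193), with arrays scaled to a common spread (0.051), with array weights (0.0747) and without the times CT03 (0.0662), CT06 (0.111), CT12 (0.0896), CT18 (0.256) or CT21 (0.253).

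Mrps21, a small subunit protein with a bacterial counterpart, had its higher values from CT12 on. Its values were 0.087, 0.018 and -0.02 at CT00, -0.026, -0.07 and -0.16 at CT03, -0.013, -0.012 and -0.10 at CT06, and 0.028, -0.35 and -0.18 at CT09. They were 0.22, 0.023 and -0.0067 at CT12, 0.20, 0.057 and 0.18 at CT15, 0.19, 0.0067 and 0.18 at CT18, and 0.32, -0.027 and -0.12 at CT21. Livers of CT15 and CT18 were all above those of CT03 and CT06, whereas CT09 and CT21 each held high and low livers. The amplitude was 0.12 ± 0.035 (SE), a fold of 1.19, with a peak at 17.6 ± 1.08 h and an adjusted p of 0.0465 in limma. The call was lost on leaving out any of 16 of the 24 arrays (adjusted p 0.0503 to 0.0878). It was kept only without CT06 replicate 1 or 2, CT09 replicate 1 or 2, CT12 replicate 1, CT18 replicate 2, or CT21 replicate 2 or 3. Of the 8 times, leaving out any but CT21 ended it (0.0632 to 0.149).

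Nuclear factors such as NRF1, the ETS factor GABP and YY1 are known to drive many genes for mitochondrial proteins, so their motifs and those of clock factors were searched for at the start of the mitoribosomal genes. RefSeq windows of 300 bases around the gene start (GRCm38.p6, 5′ to 3′ on the strand of the gene) were available for 68 of the 77 genes. Those of the called gene with the smallest p that had a window in each subunit are shown, with the searched motifs in capitals. Mrps9 lies on the plus strand at chr1:42850983-42851282 and Mrpl36 on the plus strand at chr13:73330759-73331058.
Mrps9: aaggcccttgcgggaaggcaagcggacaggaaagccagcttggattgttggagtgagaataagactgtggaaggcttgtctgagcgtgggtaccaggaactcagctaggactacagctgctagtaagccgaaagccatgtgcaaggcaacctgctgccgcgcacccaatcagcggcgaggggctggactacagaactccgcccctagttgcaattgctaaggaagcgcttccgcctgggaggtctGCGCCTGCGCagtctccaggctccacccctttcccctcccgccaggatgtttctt
Mrpl36: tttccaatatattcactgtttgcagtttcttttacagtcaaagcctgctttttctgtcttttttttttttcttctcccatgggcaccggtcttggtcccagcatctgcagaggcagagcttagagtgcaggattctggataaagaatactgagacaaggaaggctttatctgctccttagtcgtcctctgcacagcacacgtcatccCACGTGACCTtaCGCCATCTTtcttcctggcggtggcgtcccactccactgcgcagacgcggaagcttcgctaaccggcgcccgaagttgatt
The capitals in Mrps9 are the core of the NRF1 motif on the reverse strand. In Mrpl36 they are an E-box, to which the clock proteins CLOCK and BMAL1 can bind, overlapping the half-site of ROR and REV-ERB on the reverse strand, and the YY1 motif on the reverse strand.

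Over both strands, the ETS motif CCGGAAG was in 25 of 68 mitoribosomal windows (36.8%), against 9.93% of the windows of 27025 genes. The NRF1 core was in 13 (19.1%), against 5.19%, and the YY1 motif AAGATGGCG in 8 (11.8%), against 1.64%. Of the motifs of clock factors, the E-box CACGTG was in 5 (7.35%), against 8.09%, the ROR half-site AGGTCA in 10 (14.7%), against 18.1%, and the D-box TTATGTAA in 0, against 1.11%. The large subunit, with 42 windows, had the ETS motif in 14, the NRF1 core in 10, the YY1 motif in 4 and the E-box in 4. The small subunit, with 26 windows, had them in 11, 3, 4 and 1. Among the called genes, the window of Mrps2 held no searched motif, and that of Mrps21 held the NRF1 core, the ETS motif and AGGTCA. These counts describe letters in the windows and were not tested.

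Next to the threshold, Mrps21 was the last gene called (adjusted p = 0.0465 in limma) and Mrpl18 the first one not called (0.0592). Mrpl18 had an amplitude of 0.095 with a peak at 11.4 h, Mrpl2 0.082 at 11.4 h (adjusted p = 0.0655) and Mrpl4 0.10 at 21.1 h (0.0689). In the small subunit Mrps27, an RNA-binding pentatricopeptide repeat protein, had 0.13 ± 0.039 (SE) at 22.0 h (0.0717), Mrps25 0.077 at 22.6 h (0.242) and Mrps35 0.098 at 8.63 h (0.304). Single arrays left out brought calls for Mrpl18 (CT00 replicate 1 or 2, or CT09 replicate 3, adjusted p 0.0332 to 0.0495), Mrpl2 (CT03 replicate 3, CT09 replicate 2 or CT15 replicate 1, 0.0167 to 0.0444), Mrpl4 (CT00 or CT06 replicate 3, 0.0379 and 0.0444) and Mrps27 (CT00 replicate 3, CT15 replicate 2 or CT21 replicate 3, 0.013 to 0.0488). At the other end, the fitted amplitude was 0.024 in Mrpl23 (adjusted p = 0.965), 0.026 in Mrpl22 (0.955), 0.0057 in Mrps17 (0.998) and 0.019 in Mrps24 (0.943).

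For the 72 genes not called, the data bound the wave as follows. Their amplitudes ran from 0.0057 to 0.13. The upper 95% limit of the amplitude had a median of 0.12, a fold of 1.18, and was under 0.2 in 69 of 72 genes. The highest limit, 0.22 or a fold of 1.35, belonged to Mrpl42.

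**Figure D2:**
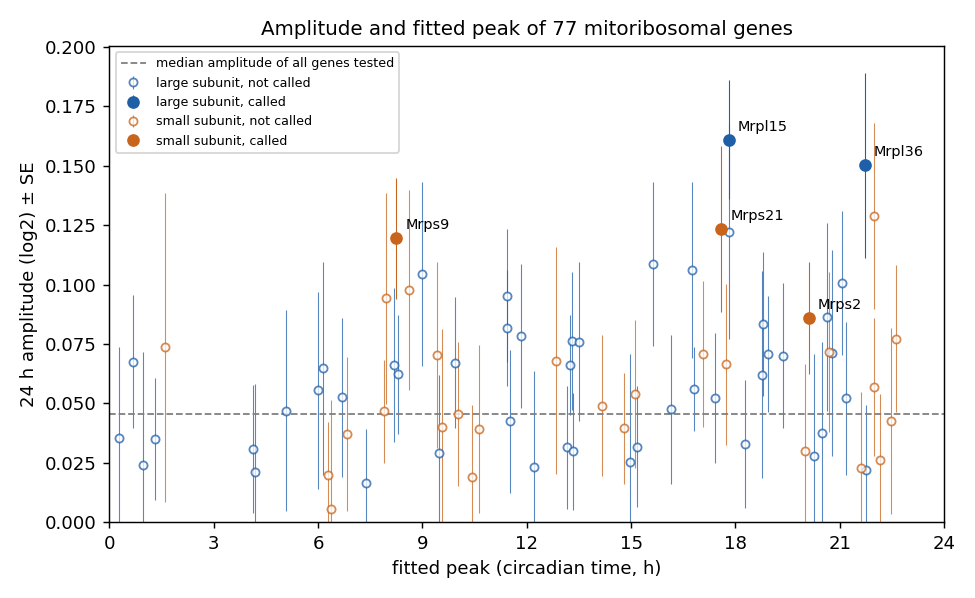
Fitted 24 h amplitude (log2, with SE) against fitted peak in circadian hours for the 77 mitoribosomal genes, with filled points for called genes and a dashed line at the median amplitude of all genes, 0.046. The peaks of both subunits, most of them from genes not called, lie around the cycle, and the large and small subunit genes overlap in amplitude.

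The fitted peaks of both subunits lay around the cycle, but most came from genes not called, whose peak times are uncertain. The SE of the peak ran from 0.597 h in Mrpl15 to 30.9 h in Mrps17, so a common peak time could be hidden by this scatter. By time means, 67.5% of members were highest at CT12, CT15 or CT18, against 36.1% of all genes. These are the members' own most frequent high times, so that share is a description. In the large subunit 28 genes peaked between CT12 and CT24 and 20 between CT00 and CT12, with a circular mean of 15.9 h. The mean resultant length, which is 0 for peaks spread evenly and 1 for equal peaks, was 0.214. In the small subunit 16 genes peaked between CT12 and CT24 and 13 between CT00 and CT12, with a circular mean of 13.6 h and a resultant length of 0.1005. Over all genes the resultant length was 0.0595, but short lists tend to higher values even where peaks are spread evenly, so these lengths are not comparable. In steps of 6 h from CT00 on, the large subunit had 8, 12, 15 and 13 peaks and the small subunit 1, 12, 7 and 9.

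A test that allows any shape over the 8 times called 4 of 77 mitoribosomal genes, against 10.9% of all genes. These were Mrpl15 (adjusted p = 0.000555), Mrps2 (0.00312), Mrps9 (0.00313) and Mrps27 (0.0249), all in limma. Mrps27 had 0.093, 0.12 and -0.19 at CT00, 0.18, 0.21 and 0.11 at CT03, -0.00074, -0.035 and 0.038 at CT06, and -0.19, -0.28 and -0.35 at CT09. It had -0.14, -0.0056 and -0.22 at CT12, -0.077, 0.16 and 0.00074 at CT15, 0.19, -0.039 and 0.26 at CT18, and 0.11, 0.085 and -0.084 at CT21. The livers of CT09 lay below those of every other time except 1 each of CT00 and CT12, and those of CT03 were all above 0.1. The Mrps27 call was lost on leaving out CT03 replicate 1 (adjusted p = 0.0509) or 2 (0.0528), or CT09 replicate 2 (0.0737) or 3 (0.0778). The count was 7 without CT15 replicate 1 and 8 without CT21 replicate 1, and the share of all genes in those fits was not taken.

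Between times 12 h apart, Mrpl15, Mrps9, Mrps2 and Mrps12 changed in at least 1 contrast of the limma group means. CT12 against CT00 gave 0 of 77 calls, against 1.79% of all genes higher and 1.67% lower, and 4 mitoribosomal genes (5.19%) had an unadjusted p under 0.05, against 11.1% of all genes. CT15 against CT03 gave 1 call, where 2.68% of all genes were higher and 1.8% lower. Mrpl15 averaged 0.12 ± 0.031 at CT15 and -0.11 ± 0.038 at CT03 (SD, n = 3 each), a difference of 0.23 ± 0.059 (SE, adjusted p = 0.0241 in limma). This call was lost without CT03 replicate 2 (0.0903) or 3 (0.0838), CT15 replicate 1 (0.0625) or 2 (0.0773), or the 4 widest arrays (0.0983).

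CT18 against CT06 gave 4 calls, 3 higher and 1 lower at CT18, where 1.43% of all genes were higher and 3.21% lower. Mrps2 averaged 0.17 ± 0.040 at CT18 and -0.049 ± 0.044 at CT06 (SD, n = 3 each), a difference of 0.22 ± 0.047 (SE, adjusted p = 0.0102 in limma). Mrps12, the protein of the decoding centre, had 0.35, 0.12 and 0.067 at CT18 and -0.089, 0.012 and -0.22 at CT06. Its groups did not overlap and differed by 0.28 ± 0.078 (SE, adjusted p = 0.0462 in limma), but the call was lost on leaving out any of 16 single arrays (0.0507 to 0.240). Mrpl15 was higher at CT18 (adjusted p = 0.0168) and Mrps9 lower, at -0.18 ± 0.055 against 0.038 ± 0.031 at CT06 (SD, n = 3 each, adjusted p = 0.0319 in limma). Leaving out single arrays of CT06 or CT18 ended the calls of Mrps2 (CT06 replicate 3, 0.0633), Mrpl15 (CT06 replicate 1 or 3, CT18 replicate 2, 0.0555 to 0.0874) and Mrps9 (any but CT18 replicate 3, 0.0563 to 0.151). Without the 4 widest arrays 1 of the 4 calls was left.

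CT21 against CT09 gave 2 calls, 1 higher and 1 lower at CT21, where 1.56% of all genes were higher and 2% lower. Mrpl15 averaged 0.080 ± 0.12 at CT21 and -0.25 ± 0.019 at CT09 (SD, n = 3 each, adjusted p = 0.00194 in limma). Mrps9 averaged -0.11 ± 0.077 at CT21 and 0.10 ± 0.073 at CT09 (SD, n = 3 each, adjusted p = 0.0374 in limma), a call lost without CT00 replicate 2 (0.0501), CT09 replicate 2 (0.144) or 3 (0.13), or CT21 replicate 1 (0.0601) or 2 (0.199), or the 4 widest arrays (0.136).

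**Figure D3:**
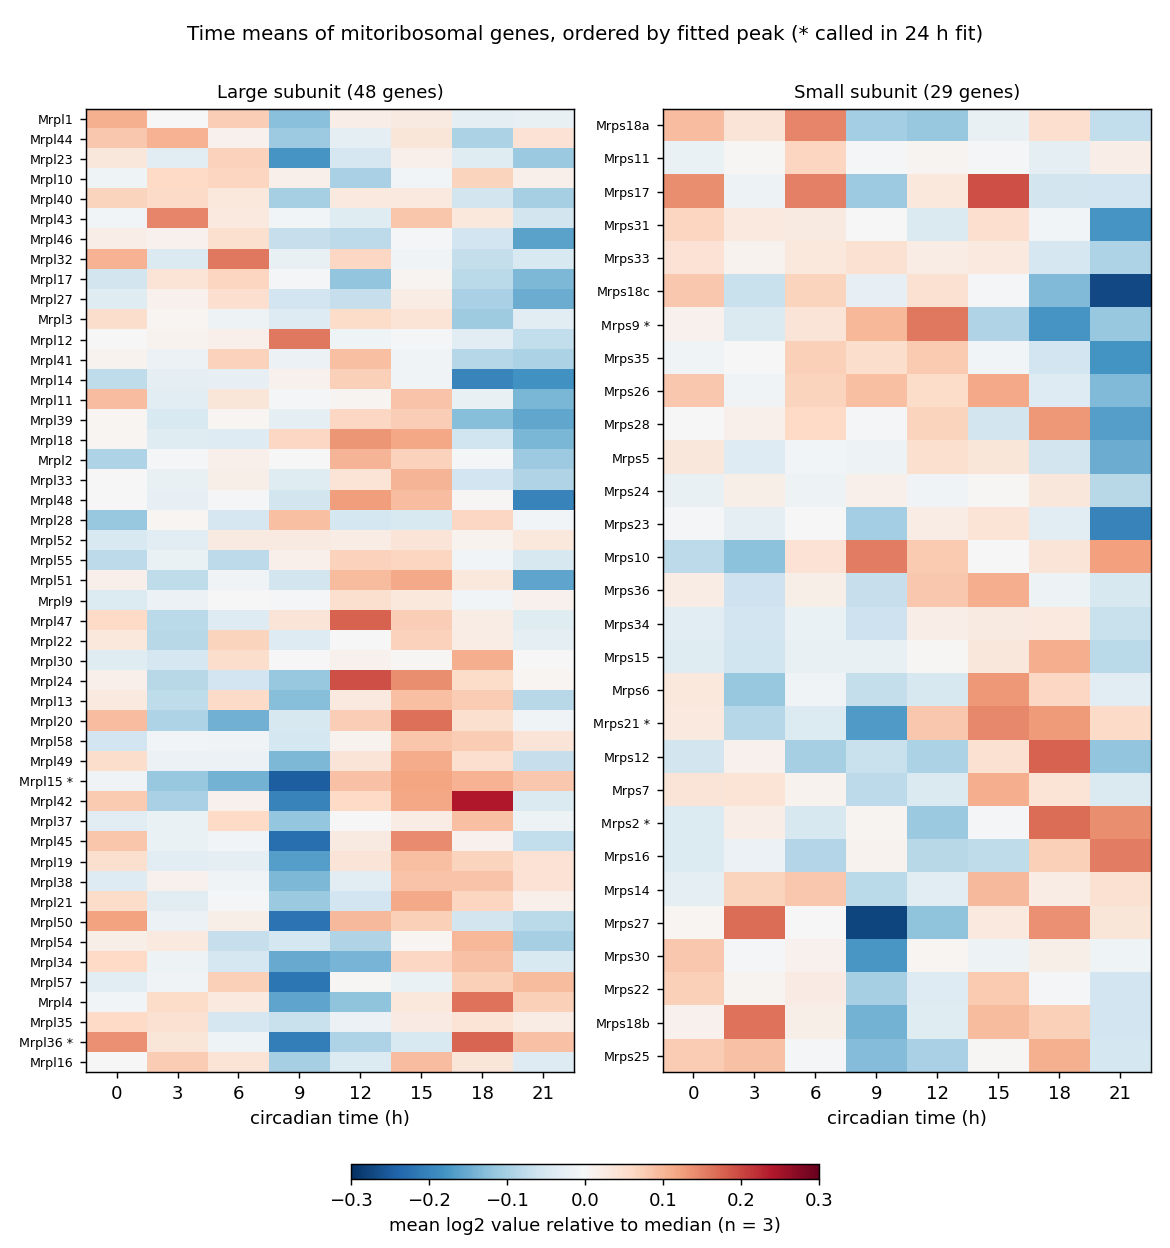
Mean log2 value relative to the median (colour, n = 3) of each mitoribosomal gene at each circadian time in hours, with genes ordered by fitted peak and called genes starred. The lowest mean is at CT09 or CT21 in 35 of 48 genes of the large and 22 of 29 of the small subunit, and in 23 and 19 without the 4 widest arrays.

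Many members had their low times in common. The lowest of the 8 time means fell at CT09 or CT21 in 57 of 77 genes (74.0%), 35 of the large and 22 of the small subunit, against 27.0% of all genes. The large subunit had its lowest mean at CT09 in 20 genes and at CT21 in 15, and the small subunit in 10 and 12. CT09 and CT21 are the most frequent low times of the members themselves. The comparison with all genes therefore favours the members in advance, and the shares are a description. Without the 4 widest arrays, of which 1 is a CT09 and 1 a CT21 array, the lowest mean fell there in 42 of 77 genes (54.5%). These were 23 of the large and 19 of the small subunit, against 26.2% of all genes. The same low times were common in nuclear genes of the respiratory chain and ATP synthase, with 54 of 77 (70.1%), and in cytosolic ribosomal proteins, with 35 of 58 (60.3%). Without the 4 widest arrays these were 49 of 77 (63.6%) and 35 of 58 (60.3%), both above the mitoribosomal share, and the differences were not tested. The highest mean fell at CT15 or CT18 in 39 of 77 genes (50.6%), against 25.1% of all genes. It did so in 35.1% of the respiratory chain list and 25.9% of cytosolic ribosomal proteins. CT15 and CT18 are likewise the most frequent high times of the members over both subunits, so the same limit holds. Without the 4 widest arrays, of which 1 is a CT15 and 1 a CT18 array, 34 of 77 mitoribosomal genes (44.2%) had their highest mean there. Of all genes 28.0% did. The respiratory chain list then had 49.4% and cytosolic ribosomal proteins 41.4%, and the differences were not tested.

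Averaged over members, the large subunit stood at -0.070 ± 0.051 at CT09, 0.054 ± 0.047 at CT15 and -0.046 ± 0.089 at CT21 (SD, n = 3 each). The small subunit stood at -0.046 ± 0.072 at CT09, 0.038 ± 0.014 at CT15 and -0.058 ± 0.099 at CT21. The 3 livers of CT21 had 0.048, -0.057 and -0.13 in the large subunit, so that single livers of 1 time lay farther apart than the highest and lowest time means. Large minus small subunit ran from -0.050 to 0.051 over the 24 arrays. On CT21 replicate 3, the widest array, 65 of 77 members were below 0 (84.4%), against 46.0% of all genes, and the part of array spread in these means was not tested.

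**Figure D4:**
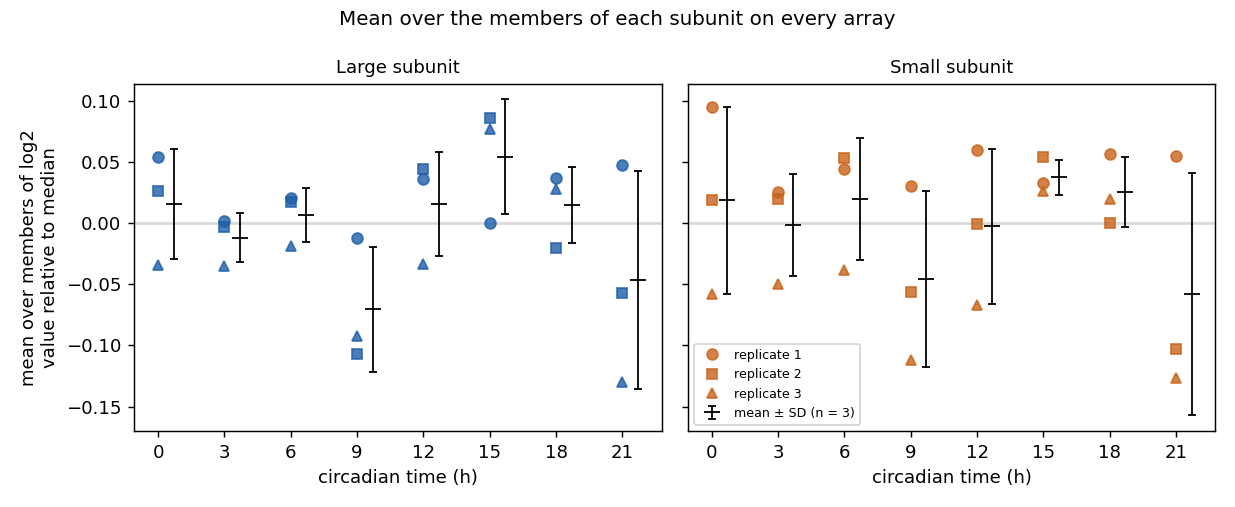
Mean over the members of each subunit of the log2 value relative to the median on every array, against circadian time in hours, with the mean and SD of 3 arrays beside the points. The means of CT09 and CT21 are the lowest in both subunits, and 1 array at each of these times lies well above the other two.

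With low means 12 h apart, a 12 h component was tested next, and it gave 0 of 77 calls in limma, against 0.577% of all genes. Array weights gave 2 calls, with no share of all genes taken. Unadjusted p in the main fit was under 0.05 in 17 genes (22.1%), against 16.7% of all genes. Without the 4 widest arrays it was 8 genes (10.4%), against 8.53% of all genes. Leaving out CT15 replicate 1 gave 1 call, also without a share of all genes. The smallest adjusted p were those of Mrps9 (0.0957), Mrps27 (0.106) and Mrps2 (0.108). The median 12 h amplitude was 0.061, against 0.047 over all genes, and 0.043 against 0.038 without the 4 widest arrays. The resultant length of the 12 h peaks was 0.620, against 0.135 over all genes, and 0.403 without the 4 widest arrays. The 12 h peak lay between 2 and 6 h in 49 of 77 members (63.6%), against 32.2% of all genes. This count draws on the same time means as the low times at CT09 and CT21 and is not separate evidence of them. The window holds the circular mean of the members' own 12 h peaks, 3.07 h, so the share of all genes is not an even reference. The respiratory chain list had 54 of 77 there (70.1%) with a resultant length of 0.551, and cytosolic ribosomal proteins had 19 of 58 (32.8%) with a resultant length of 0.625.

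After the time means were removed, members varied together to a small degree over the 24 arrays. The median correlation was 0.179 between large subunit genes, 0.251 between small subunit genes and 0.191 between large and small, against -0.0249 between a member and any other gene. The arrays and their normalization are shared by these points, so the values are a description. Cytosolic ribosomal proteins had a median of 0.218 among themselves, and the respiratory chain list 0.114. Differences between replicate numbers were not removed. The small subunit mean was lowest in number 3 at 7 of 8 times and highest in number 1 at 6. The part of replicate number in these correlations was not tested.

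Where a gene had 2 probe sets, their values were alike over the arrays in some genes only, with r of 0.994 in Mrpl23, 0.924 in Mrps36, 0.915 in Mrps33 and 0.757 in Mrpl27. It was 0.574 in Mrps5, 0.523 in Mrpl51, 0.447 in Mrpl41 and -0.427 in Mrpl47. The 2 probe sets of Mrpl47 had peaks at 14.0 and 3.39 h with adjusted p of 0.103 and 0.847 in limma, so the mean used for that gene joins unlike profiles.

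By symbol number, which in most cases follows the bacterial counterpart, the 5 called genes were all among the lower numbers. Large subunit genes numbered up to 36 had 2 of 28 called and a median amplitude of 0.054, and those above 36 had 0 of 20 and 0.062. Small subunit genes numbered up to 21 had 3 of 16 called and 0.067, and those above 21 had 0 of 13 and 0.047. Of all genes 13.8% were called. The calls are few, and those of Mrpl36, Mrps2 and Mrps21 were lost on leaving out single arrays. No link with bacterial counterparts is therefore read from these counts, and the difference was not tested.

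Genes that work with the mitoribosome were set beside it, by lists of known function. Of 15 mitochondrial translation factors and partners 3 were called, all with peaks early in the subjective day: Oxa1l, which inserts new proteins into the inner membrane (fold 1.14, peak 4.77 h, adjusted p = 0.00397 in limma), the initiation factor Mtif2 (1.23, 4.27 h, 0.00639) and the methionine aminopeptidase Metap1d (1.12, 3.43 h, 0.0154). Of 25 genes for mitoribosome assembly and rRNA modification 1 was called, the GTPase Noa1 (1.25, 16.1 h, 0.000848). Of 19 mitochondrial aminoacyl-tRNA synthetases 0 were called in the 24 h fit in limma, with 6 at an unadjusted p under 0.05. Over the 8 times 2 of them were called, against 10.9% of all genes. Of 4 mitoribosomal proteins without an Mrp symbol 0 were called, and the lowest adjusted p was that of Ptcd3 (0.109).

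Of 19 genes for mitochondrial DNA and RNA 3 were called: the RNA-binding protein Lrpprc (fold 1.21, peak 11.8 h, adjusted p = 0.000262 in limma), Fastkd1 (1.38, 13.5 h, 0.000387) and the helicase Twnk (1.32, 16.9 h, 0.00439). Of 24 import genes 5 were called, led by Timm8a1 (1.37, 14.1 h), Timm9 (1.35, 13.1 h) and Timm17a (1.26, 10.4 h). Of 12 chaperones and proteases 5 were called, led by Clpx (3.60, 0.0382 h), Afg3l2 (1.21, 10.8 h) and Grpel1 (1.19, 10.1 h). Of 10 regulators of mitochondrial biogenesis 4 were called, led by Ppargc1b (1.32, 8.35 h), Yy1 (1.17, 9.31 h) and Gabpb1 (1.18, 4.87 h). Leaving out CT06 replicate 1 ended the call of Gabpb1 (0.0581), and leaving out the 4 widest arrays that of Yy1 (0.0785).

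Of 77 nuclear genes of the respiratory chain and ATP synthase, whose products assemble with those made on the mitoribosome, 6 were called (7.79%), led by Cox5a (fold 1.15, peak 17.1 h), Ndufa8 (1.14, 16.01 h) and Cox7a2l (1.14, 10.2 h). Without the 4 widest arrays the calls of Ndufa8 (0.114) and Cox7a2l (0.0755) were lost. Of 58 cytosolic ribosomal proteins 0 were called in the 24 h fit in limma, with 3 at an unadjusted p under 0.05, and their median amplitude was 0.035. Over the 8 times 1 of them was called, against 10.9% of all genes. Of 24 genes for ribosome biogenesis 12 were called. All of these lists share the arrays with the mitoribosomal genes, and no difference between lists was tested. Leaving out whole times ended the calls of Gabpb1 (CT06, CT18 or CT21), Yy1 (CT09, CT12 or CT21), Metap1d (CT03, CT06, CT12 or CT18), Oxa1l (CT06 or CT18), Twnk (CT15), Ndufa8 (CT15 or CT18) and Cox7a2l (CT12 or CT21), with adjusted p between 0.0504 and 0.184.

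**Figure D5:**
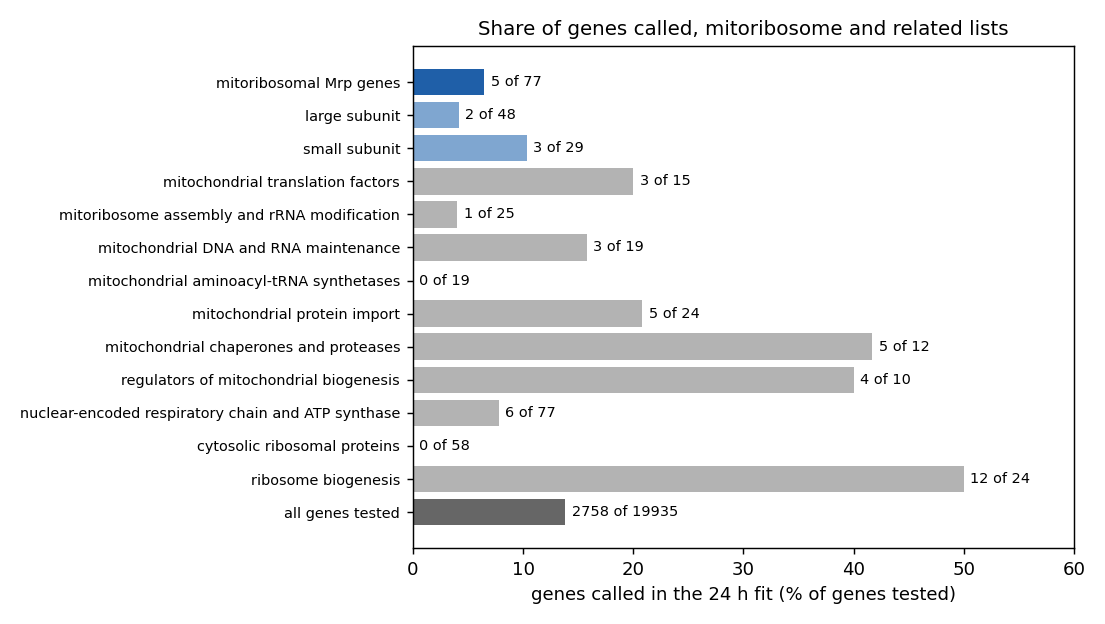
Share of genes called in the 24 h fit (% of genes tested, bars from 0) in the mitoribosomal genes, both subunits, related lists and all genes, with counts beside the bars. The mitoribosomal genes had 5 of 77 called in this fit, and all genes 2758 of 19935.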

How the data were processed

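Liver RNA was measured on 24 arrays, 8 circadian times with 3 livers each. The labels mention both 4 mice and 3 biological replicates per time, and the sample titles, which give 3, were followed. The values deposited by the authors were treated as log2 values: every row median over the 24 arrays was 0 to within 5e-07. How arrays were normalized, and the log base, is not given in the sources used here. Array medians ran from -0.0185 to 0.0147. The number of arrays limits the precision.

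Symbols came from the platform annotation. Of 28815 probe sets, 21780 had 1 symbol, 1605 several and 5430 were not listed there and are unnamed here. Probe sets of a gene were averaged, which gave 19935 genes. limma 3.58.1 in R 4.3.3 tested 24 h terms, equality of the 8 times, added 12 h terms and 4 contrasts between times 12 h apart, each adjusted by Benjamini-Hochberg over all genes. The contrasts share the spread of all 24 arrays. The tests were first tested on simulated data. No filter on low values was used, since levels are not known, so all 77 members were tested.

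The members, lists, motifs and rules for naming genes were chosen with earlier results of these data known. Named were all members called in the 24 h fit, the 3 uncalled with the smallest and 2 with the largest p of each subunit, members called in the other tests, and up to 3 called genes of each related list. Replicate numbers were not used as pairs in the main fits, by a rule that asked for a correlation of deviations over 0.1 in every same-numbered pair of arrays. This rule does not test whether arrays of a number share an effect, and the fits with a replicate block are given below. Leaving out the 4 widest arrays was added after seeing the data. Alternatives were single arrays or times left out, quantile or scaled arrays, array weights, robust moderation, single probe sets, the replicate block and the genes with a spread over the median.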

Additional observations from a re-analysis of the deposited data

How the results depend on the processing

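The 5 calls for a 24 h wave ranged from 2 to 6 on leaving out single arrays (2 without CT12 replicate 3 or CT21 replicate 1), and were 2 without CT12 and 1 without CT18. With array weights 9.09% of members were called for 24 h, against 14.8% of all genes. The 4 calls over the 8 times ranged from 3 to 8, and were 22 (28.6%) with array weights, where 34.5% of all genes were called. The 0 calls for 12 h ranged from 0 to 1, and were 2 with array weights and 1 without CT03 or CT06. CT15 against CT03 (1 call) ranged from 0 to 1, and was 0 in genes with a spread over the median and without the 4 widest arrays. CT18 against CT06 (4 calls) ranged from 0 to 4, and was 0 and 1 under these settings. The first of these leaves out Mrps2, whose spread was under the median, so that its call was not tested there. CT21 against CT09 (2 calls) ranged from 1 to 3. It was 1 with quantile normalization (2.54% of all genes called), scaled arrays (2.2%), genes with a spread over the median (7.06% of these) or without the widest arrays (2.02%). It was 6 with array weights, where 6.07% of all genes were called. Where a count here stands without a share of all genes, none was taken, and its change is not read as particular to the members. CT12 against CT00 gave 0 calls under all alternatives run. The labels do not say that replicate numbers mark a shared batch. Same-numbered arrays had a median correlation of deviations of 0.111 (45 of 84 pairs over 0.1), different-numbered ones -0.0623 (45 of 168), and 15 of 24 arrays correlated best with their own number. Averaged over the members, number 3 was lowest at 6 of 8 times and highest at 0, and number 1 highest at 6. The replicate block gave 10 calls for 24 h (13%, against 15% of all genes), so that the distance to all genes was smaller than without it, 7 over the 8 times (9.09%, against 13.4%) and 4 for CT21 against CT09, where 4.41% of all genes were called. No value reversed. The cause of these changes was not tested.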
